A study of Homo sapiens with 6 samples.

Results

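The genes of the mitochondrial ribosomal proteins were examined in a renal cancer cell line with stable knockdown of YB1. They were taken as every row of the expression table whose gene symbol begins with MRPL (large subunit) or MRPS (small subunit) followed by a number. This gave 78 of the 20030 genes listed, 49 of them MRPL and 29 MRPS, and all 78 are protein-coding genes of the mitochondrial ribosome list used here, except that MRPS36 is now known as a component of a metabolic enzyme complex. The cells were 786-O, an established line from human clear cell renal cell carcinoma. Control cells (vector, 3 libraries) carried a lentiviral nonsense short hairpin RNA (shRNA), and knockdown cells (shYB1, 3 libraries) a lentiviral shRNA against YB1. Both groups were selected with puromycin and sequenced at passages 16 to 18. The design text speaks of several independent shRNAs, whereas the labels give a single shYB1 group. It is therefore not known whether the 3 shYB1 libraries carry the same shRNA. Nothing states that replicates were separate cultures, so the spread between them, and every p-value below, may be technical.

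Mitochondria carry their own ribosome, which translates the few membrane proteins of the respiratory chain and ATP synthase that mitochondrial DNA encodes. Its ribosomal RNAs come from mitochondrial DNA, but its proteins are encoded in the nucleus, made in the cytosol and imported. Many descend from the bacterial ribosome, and others were added in mitochondria. YB1, encoded by YBX1, is a cold shock domain protein that binds RNA and DNA and is named for the Y-box, a promoter element with the core CCAAT.

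Values are FPKM, fragment numbers scaled by transcript length and by the mapped fragments of the library, which allow levels of different genes to be set side by side. YBX1 itself measured 366.5, 373 and 378 FPKM in vector and 167, 166 and 173 in shYB1 (log2 fold change −1.14, SE 0.031, limma adjusted p = 1.53e-08). FPKM totals were 282736 to 295887 per library and the relative depths 0.981 to 1.10, while the depth in fragments is unknown. Of the 8 renal carcinoma markers, all passed the expression filter, with summed levels of 1778 to 1869 FPKM in vector and 1848 to 1885 in shYB1. The immune markers PTPRC and CD3E and the endothelial markers CDH5 and VWF were at or near 0 in every library. The third endothelial marker, PECAM1, was low but detected, at 0.406, 0.380 and 0.365 FPKM in vector and 0.230, 0.278 and 0.326 in shYB1, and its groups did not overlap. Another immune marker, CD68, also a lysosomal protein of many cells, fell, with values of 24.7 to 25.4 FPKM in vector and 22.1 to 22.6 in shYB1. The part of these differences in the results below was not tested, and in bulk RNA fewer cells of a type cannot be told apart from less RNA per cell.

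Transcripts of the mitochondrial ribosome were modestly more abundant after YB1 knockdown. A gene was called where limma gave a Benjamini-Hochberg adjusted p under 0.05 over all 10439 genes averaging 1 FPKM or more, and all 78 members passed that filter. Of them 30 rose (38.5%), where 18.7% of all tested genes rose, and 1 fell (1.28%), where 6.93% of all tested genes fell. The differences were small, from 0.907-fold for MRPL43 to 1.39-fold for MRPS10, and 0 members passed a fold of 1.5. The median log2 fold change was 0.14 over the members and 0.06 over all tested genes, and 65 of 78 members (83.3%) against 64.1% of all tested genes lay above 0.

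The scaling of the libraries bears on these counts. With the values as deposited, 73.0% of all calls in the table were in the higher direction. After median-of-ratios scaling, which divides each library by its median ratio to a reference of all libraries and moved the median of all tested genes from 0.06 to −0.0006 on the log2 scale, that share was 47.9%. Under that scaling 16 members rose (20.5%) where 11.2% of all tested genes did, and 2 fell, where 12.2% did. All 16 were among the 30. With the libraries brought to a common total 31 members rose and 2 fell, where 18.6% and 7.46% of all tested genes did.

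**Figure D1:**
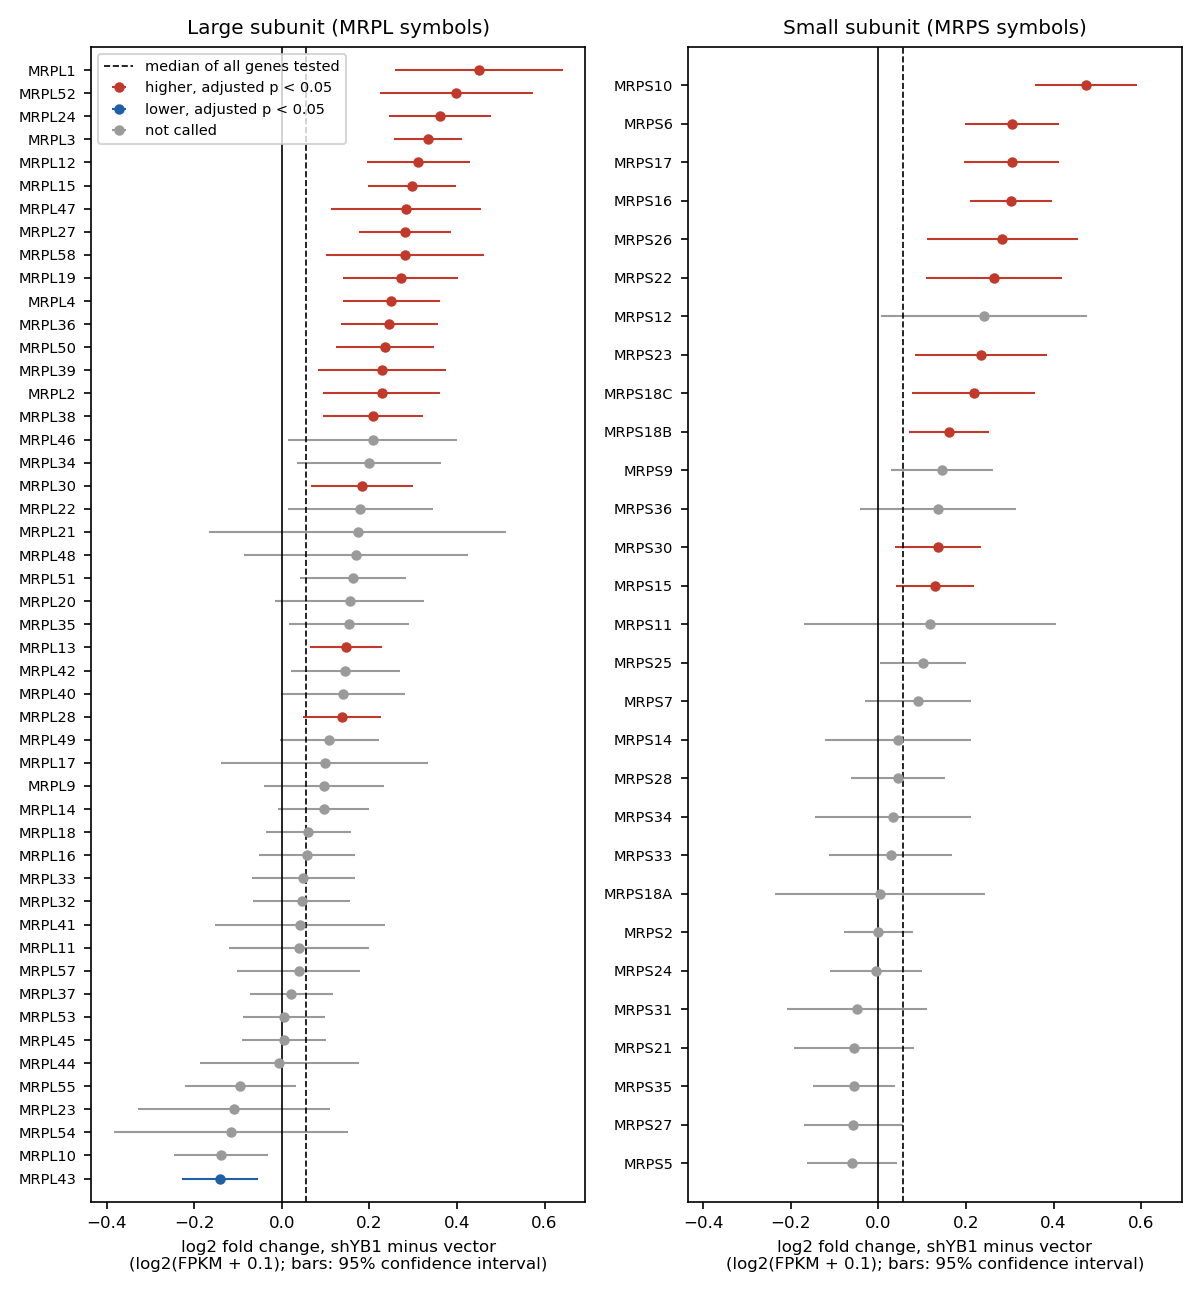
Log2 fold change (shYB1 minus vector, horizontal axis) of each of the 78 genes with its 95% confidence interval, for large-subunit genes on the left and small-subunit genes on the right, sorted by size and coloured by call. Most points lie to the right of 0 and of the dashed line, the median of all tested genes at 0.06, and MRPL43 is the only gene called lower.

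The summed FPKM of the 78 genes showed the same shift in every library. The sum was 1801, 1780.4 and 1899 FPKM in vector, in order of replicate number, and 1969.5, 1996 and 2013 in shYB1. As a share of the library's FPKM total this was 0.628% to 0.642% in vector and 0.691% to 0.692% in shYB1. The groups did not overlap in either measure. In 34 members (43.6%) every shYB1 library lay above every vector library, against 30.1% of all tested genes, and in 2 members, MRPL43 and MRPL10, every shYB1 library lay below, against 12.5%. The 34 comprise 29 of the 30 called higher and 5 that missed the threshold (MRPL22, MRPL40, MRPL42, MRPS9 and MRPS25). The remaining called gene, MRPS23, had a vector library at 17.9 FPKM above a shYB1 library at 17.8. The genes in the last 3 sentences, MRPL10 included, were named after their values were seen.

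MRPS10, the small-subunit head protein related to bacterial S10, had the largest fold change. The gene has 7 exons in its matched transcript of GENCODE release 29 (minus strand of chromosome 6, RefSeq positions 42206807 to 42217861 on GRCh38). It measured 15.1, 16.7 and 17.3 FPKM in vector and 23.2, 22.9 and 22.2 in shYB1. All shYB1 values were clear of the vector values (log2 fold change 0.47, SE 0.052, limma adjusted p = 0.000179). MRPL1, which forms the mobile stalk near the tRNA exit (chromosome 4, 77862830 to 77952785, plus strand, 9 exons), followed at 5.76, 6.11 and 7.41 FPKM in vector and 8.77, 9.11 and 8.42 in shYB1. Its vector libraries were more spread out than its shYB1 libraries, and the groups stayed apart (0.45, SE 0.086, limma adjusted p = 0.00473). MRPL52, a mitochondrion-specific large-subunit protein, was at 4.73, 3.80 and 4.21 FPKM in vector and 5.78, 5.47 and 5.58 in shYB1 (0.40, SE 0.079, limma adjusted p = 0.00505). Its level was among the lowest of the family, and its groups did not overlap.

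The other genes with the largest increases were expressed at higher levels. MRPL24, a protein at the exit of the peptide tunnel, was at 23.9, 22.0 and 25.1 FPKM in vector and 29.3, 31.5 and 30.4 in shYB1 (log2 fold change 0.36, limma adjusted p = 0.000966). MRPL3, which reaches toward the peptidyl transferase centre, was at 29.2, 28.5 and 28.7 FPKM in vector and 35.8, 36.2 and 36.9 in shYB1. MRPL3 had the smallest standard error of the family (0.035) and a log2 fold change of 0.33 (limma adjusted p = 0.000128). MRPL12, the flexible stalk protein that takes part in recruiting translation factors, was at 39.1, 42.7 and 45.9 FPKM in vector and 53.7, 51.9 and 52.6 in shYB1 (0.31, limma adjusted p = 0.0024). In these genes the lowest shYB1 library exceeded the highest vector library. MRPS6, a protein of the small-subunit platform, was at 87.1, 81.6 and 93.3 FPKM in vector and 109, 104 and 110.1 in shYB1 (0.30, limma adjusted p = 0.00176). MRPS17, related to bacterial S17, was at 23.6, 23.7 and 21.7 FPKM in vector and 27.1, 28.5 and 29.6 in shYB1 (0.30, limma adjusted p = 0.00179). Both were again separated by group.

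MRPL43, a mitochondrion-specific protein of the large subunit, was the only member that fell. The gene has 5 exons and lies on chromosome 10 from 100977820 to 100987497 on the minus strand. It measured 32.2, 30.8 and 33.2 FPKM in vector and 29.2, 28.7 and 29.2 in shYB1 (log2 fold change −0.14, SE 0.039, limma adjusted p = 0.0245). The groups were separate by a narrow margin, and the call was lost in 6 of the 15 alternative settings. Exons of MRPL43 overlap TWNK, the mitochondrial DNA helicase gene on the opposite strand, which rose (log2 fold change 0.35, limma adjusted p = 0.00255). Whether the counting used strand is not given in the sources used here, so reads in the overlap cannot be assigned with certainty.

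**Figure D2:**
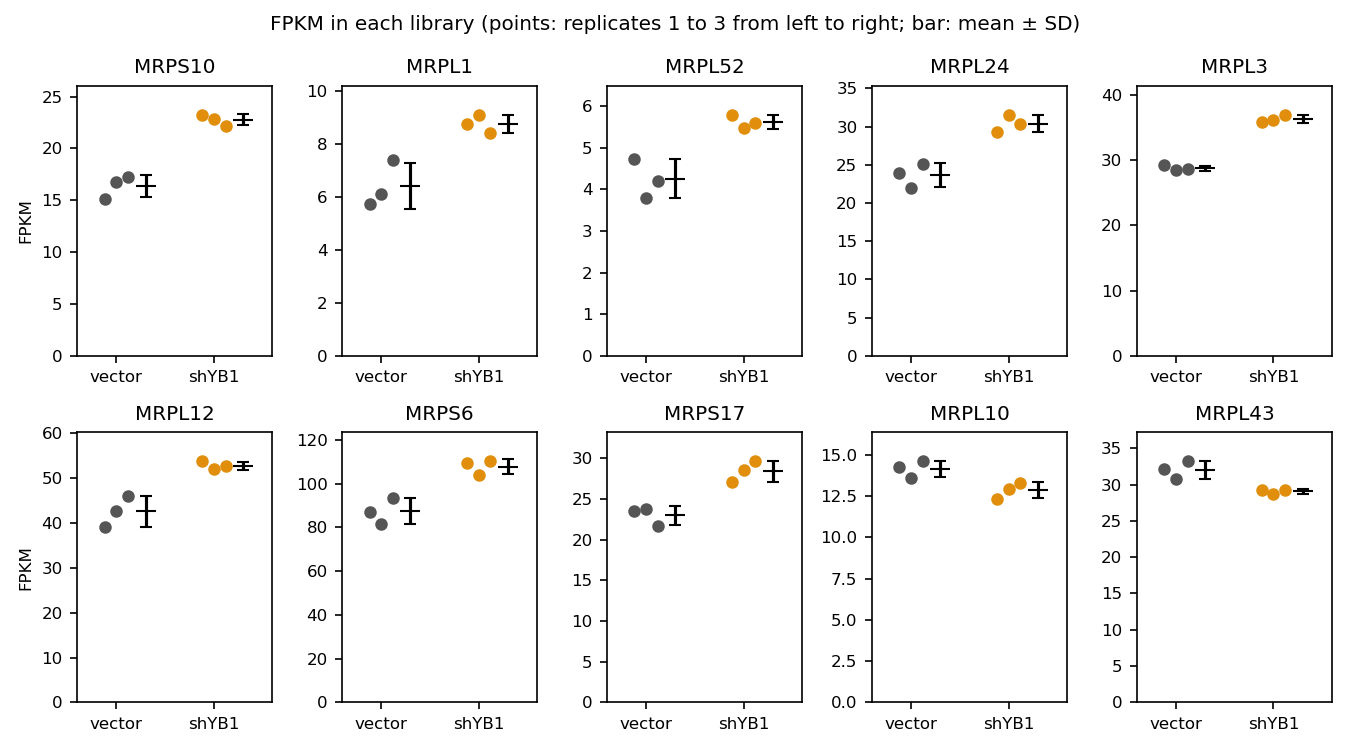
FPKM in each library (vertical axes, starting at 0) of the 8 genes with the largest increases and of MRPL10 and MRPL43, with points for the 3 vector and 3 shYB1 libraries and the mean ± SD of each group. In each panel the groups are separate, shYB1 above vector in the first 8 and below it in MRPL10 and MRPL43.

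Promoters were read for genes at both ends of the range and for 2 of the peptidyl transferase group, because YB1 was named for binding to the Y-box. The 250 bases before the RefSeq transcription start (GRCh38.p14) are printed for the 2 genes of largest increase, for MRPL3 and MRPL4 of the peptidyl transferase group, and for MRPL43. Capitals mark the Y-box core (CCAAT or, on the other strand, ATTGG) and the core of ETS family sites (CCGGAAG or CTTCCGG), the site type bound by GABP, a known activator of nuclear genes for mitochondrial proteins. The regions are chr6:42217862-42218111 (minus strand) for MRPS10, chr4:77862580-77862829 (plus) for MRPL1, chr3:131502972-131503221 (minus) for MRPL3, chr19:10251701-10251950 (plus) for MRPL4 and chr10:100987498-100987747 (minus) for MRPL43.
MRPS10: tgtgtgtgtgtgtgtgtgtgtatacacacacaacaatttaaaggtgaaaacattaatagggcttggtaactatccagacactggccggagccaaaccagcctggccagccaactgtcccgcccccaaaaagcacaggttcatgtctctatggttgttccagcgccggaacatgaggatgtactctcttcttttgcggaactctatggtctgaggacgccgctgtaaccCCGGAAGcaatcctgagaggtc
MRPL1: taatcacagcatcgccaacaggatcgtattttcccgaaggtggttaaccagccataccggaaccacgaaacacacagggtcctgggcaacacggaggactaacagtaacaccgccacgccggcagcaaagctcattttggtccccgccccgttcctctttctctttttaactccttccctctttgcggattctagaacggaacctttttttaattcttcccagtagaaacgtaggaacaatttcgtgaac
MRPL3: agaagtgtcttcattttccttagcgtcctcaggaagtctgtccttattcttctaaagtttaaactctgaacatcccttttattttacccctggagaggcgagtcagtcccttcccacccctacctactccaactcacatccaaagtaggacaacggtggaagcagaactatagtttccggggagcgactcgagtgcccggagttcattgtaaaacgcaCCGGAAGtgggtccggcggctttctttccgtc
MRPL4: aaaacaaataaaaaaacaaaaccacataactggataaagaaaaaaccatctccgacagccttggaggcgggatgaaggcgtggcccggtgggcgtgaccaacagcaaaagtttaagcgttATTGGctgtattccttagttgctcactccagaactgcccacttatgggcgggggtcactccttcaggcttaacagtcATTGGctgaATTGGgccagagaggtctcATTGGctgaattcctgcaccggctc
MRPL43: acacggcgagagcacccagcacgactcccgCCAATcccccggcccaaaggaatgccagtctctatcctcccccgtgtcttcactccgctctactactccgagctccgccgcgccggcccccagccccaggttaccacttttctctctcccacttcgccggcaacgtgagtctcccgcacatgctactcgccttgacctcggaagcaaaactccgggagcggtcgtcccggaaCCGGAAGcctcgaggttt

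MRPS10, MRPL3 and MRPL43 each held 1 ETS core, within 32 bases of the start. MRPL4 held 4 Y-box cores, MRPL43 held 1, and MRPL1 held neither motif. A promoter was matched for 70 members. The ETS core was present in 23 of them (32.9%), where 8.82% of all 27305 promoters and 11.9% of those of genes in the table held it. The Y-box core was present in 19 (27.1%), where 33.0% of all promoters held it. The core of NRF1 sites (GCATGCG or CGCATGC), another regulator of mitochondrial genes, was present in 7 (10%), where 3.57% of all promoters held it. Among the 27 matched members that rose, 7 held a Y-box and 11 an ETS core, and among the 42 not called, 11 held each. The median log2 fold change was 0.06 in members with a Y-box core and 0.14 in those without. For the ETS core it was 0.17 with and 0.12 without, and neither difference was tested. These matches are descriptions of the sequence and not sites of measured binding.

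By subunit, 19 of 49 MRPL genes rose (38.8%) and 1 fell, and 11 of 29 MRPS genes rose (37.9%) and 0 fell, where 18.7% of all tested genes rose. The median log2 fold change was 0.15 for the large and 0.12 for the small subunit, and the difference between the subunits was not tested. The levels of both subunits shifted in the same direction. The median level of the large-subunit genes was 14.6, 14.5 and 14.6 FPKM in vector and 16.5, 15.8 and 15.5 in shYB1. That of the small-subunit genes was 20.8, 21.3 and 19.4 FPKM in vector and 22.4, 22.7 and 22.0 in shYB1. Both medians were higher in every shYB1 library than in any vector library, as was the median of all tested genes (7.02, 7.18 and 7.21 FPKM in vector and 7.42, 7.45 and 7.44 in shYB1). The ratio of the summed small- to large-subunit FPKM was 0.700, 0.706 and 0.713 in vector and 0.719, 0.682 and 0.711 in shYB1, so the groups overlapped in the balance of the subunits. Under median-of-ratios scaling 12 MRPL genes (24.5%) and 4 MRPS genes (13.8%) rose, where 11.2% of all tested genes did, so the share of the small subunit was near the background.

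Symbols do not always match the place of a protein in the structure. MRPS18A and MRPS30 belong to the large subunit, which then had 51 genes, of which 20 rose and 1 fell, and MRPS36 is in neither subunit, which left 26 small-subunit genes, of which 10 rose. The 3 MRPS18 genes are copies of one bacterial gene that occupy different positions. MRPS18C, in the bacterial S18 position, was at 7.54, 7.31 and 7.62 FPKM in vector and 8.57, 9.54 and 8.13 in shYB1 (log2 fold change 0.22, limma adjusted p = 0.0293). MRPS18B was at 26.4, 27.2 and 25.7 FPKM in vector and 30.4, 28.4 and 29.9 in shYB1 (0.16, limma adjusted p = 0.0175). MRPS18A was at 8.90, 6.83 and 8.43 FPKM in vector and 7.33, 7.78 and 9.06 in shYB1. MRPS18A overlapped between the groups (0.004, 95% confidence interval −0.24 to 0.24), while MRPS18B and MRPS18C did not overlap. The calls of MRPS18B and MRPS18C were lost under median-of-ratios scaling. MRPS36, whose product is now known as a component of the 2-oxoglutarate dehydrogenase complex, was at 4.82, 5.63 and 4.69 FPKM in vector and 5.13, 5.71 and 5.80 in shYB1, with overlapping groups (limma adjusted p = 0.237).

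Proteins with a bacterial counterpart and those added in mitochondria both included genes that rose. MRPS18A and MRPS18B, though copies of a bacterial gene, were counted here as specific to mitochondria. Of 46 with a bacterial homologue 20 rose (43.5%) and 0 fell, and of 31 specific to mitochondria 10 rose (32.3%) and 1 fell, where 18.7% of all tested genes rose. Under median-of-ratios scaling the counts that rose were 13 of 46 (28.3%) and 3 of 31 (9.68%), where 11.2% of all tested genes rose, so the mitochondrion-specific share was then not above that of all genes. The 10 mitochondrion-specific small-subunit genes gave 4 that rose (MRPS18B, MRPS22, MRPS23 and MRPS26) with the deposited values and 0 after that scaling.

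**Figure D3:**
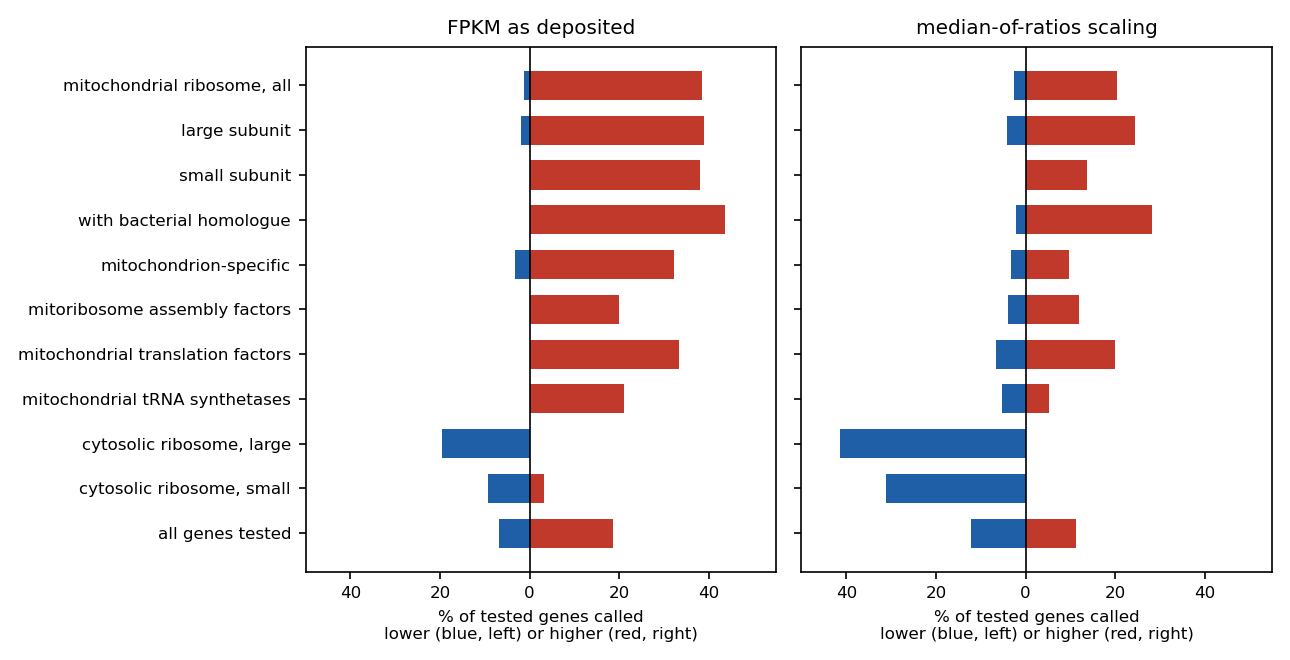
Percentage of tested genes called lower (blue, to the left) or higher (red, to the right) in shYB1 in each gene group, with the FPKM as deposited and after median-of-ratios scaling. The mitochondrial ribosome reaches 38.5% higher and 20.5% higher, the cytosolic ribosomal protein genes lie mainly to the left in both panels though not under quantile normalization, which is not drawn, and the bottom bar gives all tested genes.

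Genes were also grouped by the region of the ribosome their products form. These groups hold 4 to 7 genes each, and their counts stand beside the 18.7% of all tested genes that rose (11.2% under median-of-ratios scaling), so that 1 or 2 genes rising in a group is close to the background. Around the peptidyl transferase centre, where peptide bonds are made, 4 of 5 rose and 3 of 5 did so under median-of-ratios scaling. Besides MRPL3 these were MRPL27, whose bacterial homologue reaches into the centre (19.8, 19.3 and 18.1 FPKM in vector and 23.2, 24.1 and 22.3 in shYB1, limma adjusted p = 0.00218), and MRPL4, a lining protein of the tunnel (11.8, 11.99 and 13.1 against 14.7, 14.8 and 14.4 FPKM, limma adjusted p = 0.00542). The fourth, MRPL2, was at 10.7, 12.6 and 11.7 FPKM in vector and 13.4, 14.1 and 13.5 in shYB1 (limma adjusted p = 0.0197). The groups did not overlap in any of the 4, and MRPL2 lost its call after median-of-ratios scaling (adjusted p = 0.0516). The fifth, MRPL16, had overlapping groups and a log2 fold change of 0.06.

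In the stalk that contacts the translation factors, 1 of 5 rose, and its members lay far apart. MRPL12 rose as given above. MRPL10, which anchors MRPL12 on the ribosome, was at 14.2, 13.6 and 14.6 FPKM in vector and 12.3, 12.9 and 13.3 in shYB1. The values of MRPL10 did not overlap, with a log2 fold change of −0.14 (limma adjusted p = 0.0600), and it was called lower in 4 of the 15 alternatives, median-of-ratios scaling among them (adjusted p = 0.0164). MRPL11, MRPL53 and MRPL54 had overlapping groups.

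At the tunnel exit 2 of 6 rose, MRPL24 and MRPL47, the latter at 12.5, 10.98 and 13.9 FPKM in vector and 14.6, 15.5 and 15.3 in shYB1 (limma adjusted p = 0.0236). In the central protuberance, at the top of the large subunit, 2 of 7 rose. They were MRPL38, at 20.03, 21.0 and 22.8 FPKM in vector and 24.2, 25.5 and 24.0 in shYB1 (limma adjusted p = 0.0152), and MRPL58, a peptidyl-tRNA hydrolase built into the ribosome, at 7.42, 6.76 and 7.39 against 7.75, 8.83 and 9.80 FPKM (limma adjusted p = 0.0299). Along the decoding site and messenger path of the small subunit 0 of 5 passed the test, and the median log2 fold change was −0.0002. In the small-subunit head 1 of 4 rose, MRPS10. After median-of-ratios scaling MRPL47 and MRPL58 were no longer called and MRPL24, MRPL38 and MRPS10 were.

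Levels within the family differed by 93.8-fold. The median over the 78 genes was 17.0 FPKM, with 48 genes from 10 to under 50 FPKM, 24 under 10 and 6 at or above 50. MRPS24, of the messenger entry side of the small subunit, was the most abundant at 147, 151 and 166 FPKM in vector and 159.7, 151 and 150.7 in shYB1. MRPL51, a mitochondrion-specific large-subunit protein, was next at 125, 119 and 130.0 FPKM in vector and 129, 150.5 and 139.6 in shYB1. The ranges of MRPS24 and MRPL51 overlapped, and both lay above every value of MRPS6, the third. Neither MRPS24 (limma adjusted p = 0.945) nor MRPL51 (0.0532) passed the test.

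The lowest levels were those of MRPS11, MRPL23 and MRPS31. MRPS11 was at 1.44, 1.34 and 1.97 FPKM in vector and 1.72, 1.67 and 1.73 in shYB1. MRPL23 was at 1.89, 1.79 and 2.27 FPKM in vector and 1.81, 1.81 and 1.84 in shYB1. These ranges overlapped each other and between the groups, and both genes had wide standard errors (0.13 and 0.099). MRPS31 was at 4.75, 4.35 and 4.72 FPKM in vector and 4.08, 4.68 and 4.61 in shYB1, above every value of MRPS11 and MRPL23 and with overlapping groups. Across the 78 genes, which share the same 6 libraries, the log2 fold change was little related to the level (Spearman's rho −0.0437), to transcript length (0.0303) or to GC content (−0.173), given as descriptions.

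**Figure D4:**
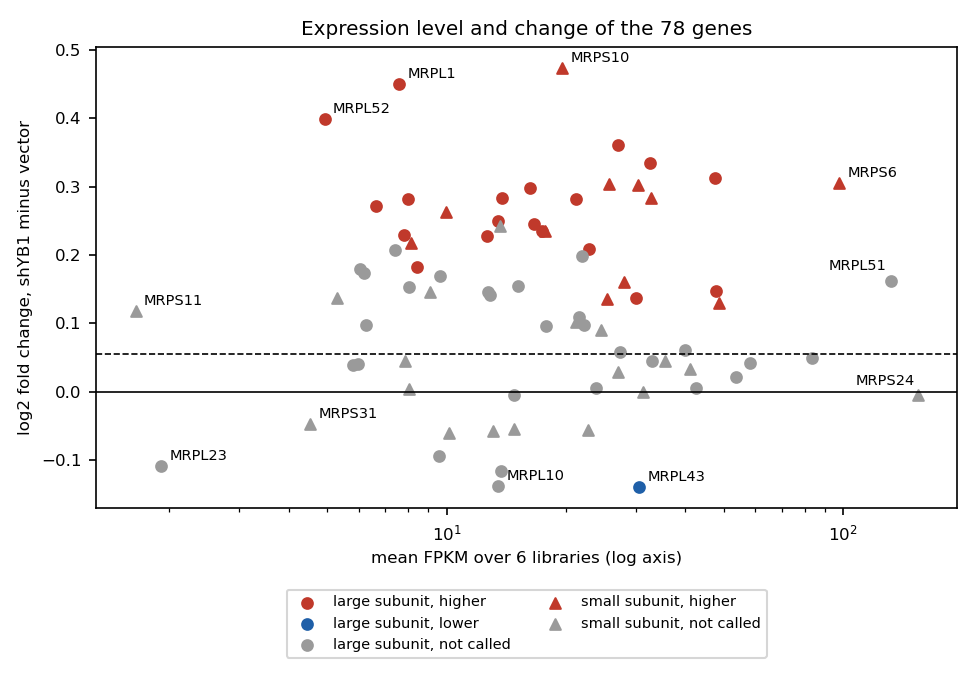
Mean FPKM over the 6 libraries (horizontal log axis) against the log2 fold change (vertical axis) of the 78 genes, with circles for the large and triangles for the small subunit, coloured by call. The genes called higher span levels from 4.93 FPKM (MRPL52) to 97.6 FPKM (MRPS6), while MRPS24 and MRPL51 at the right are not called.

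Some values are uncertain because of shared sequence. In 9 members at least 15% of the 50-base words of the transcript also occur in another gene, and 4 of these rose (MRPL12, MRPL30, MRPL38 and MRPS17). The share was 66.6% in MRPL12, through the annotated gene AC139530.2 at the same locus, and 27.1% in MRPS17, through AC092647.5. In all 4 that rose, the gene sharing most lies at the same locus and is not among the genes listed. NIPSNAP2, which overlaps MRPS17 on the same strand, fell (log2 fold change −0.16, limma adjusted p = 0.0155). Some other overlapping genes rose together with the member. These were DNAJC9 on the strand of MRPS16 (0.25, limma adjusted p = 0.00444) and, on the opposite strand, MTBP at MRPL13 (0.29, 0.0207) and ACTL6A at MRPL47 (0.16, 0.0203). SLC5A3 at MRPS6, COPB2 at MRPS22, KLC4 at MRPL2, ABRAXAS1 at MRPS18C and TMEM8A at MRPL28 were tested and not called. Exons of 29 members overlap a gene on the opposite strand, among them 9 of the 30 that rose.

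Mitochondrial ribosomal proteins with other symbols rose in 3 of 5 cases, where 18.7% of all tested genes rose. These calls held under median-of-ratios scaling, where 11.2% of all tested genes rose. GADD45GIP1, a large-subunit protein, was at 50.3, 50.6 and 53.1 FPKM in vector and 66.1, 58.9 and 65.9 in shYB1 (log2 fold change 0.31, limma adjusted p = 0.00148). DAP3, a GTP-binding small-subunit protein, was at 18.4, 19.3 and 20.6 FPKM in vector and 22.2, 24.9 and 25.1 in shYB1 (0.31, limma adjusted p = 0.00457). AURKAIP1, also of the small subunit, was at 30.5, 33.6 and 33.7 FPKM in vector and 37.8, 39.1 and 43.5 in shYB1 (0.30, limma adjusted p = 0.0055). In all 3 genes the groups were separate. CHCHD1 was at 22.8, 21.4 and 25.3 FPKM in vector and 25.0, 23.5 and 27.1 in shYB1, with overlapping groups. PTCD3, a pentatricopeptide repeat protein, was at 4.99, 5.44 and 5.81 FPKM in vector and 5.86, 6.32 and 6.39 in shYB1, separate but not called (limma adjusted p = 0.0647).

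The wider machinery of mitochondrial translation was counted in the same way. Of 15 translation factors and mRNA-binding cofactors 5 rose (33.3%) and 0 fell. The largest changes among them were in the elongation factor GFM1 (log2 fold change 0.34), the initiation factor MTIF2 (0.28) and the RNA-binding protein SLIRP (0.28). Of 25 tested ribosome assembly factors 5 rose (20%, near the 18.7% of all tested genes) and 0 fell, led by MALSU1 (0.35), the GTPase GTPBP10 (0.34) and NGRN (0.32). Of 19 tested mitochondrial tRNA synthetases and related enzymes 4 rose (21.1%, also near that share) and 0 fell, among them WARS2 (0.28) and GARS, which also serves the cytosol (0.16). Of the 5 genes for transcription of mitochondrial DNA 0 passed the test. Of 7 tested regulators of nuclear mitochondrial genes 1 rose, PPRC1, a coactivator of the PGC-1 family (0.35, limma adjusted p = 0.00071), while NRF1 (−0.05) and GABPA (0.06) did not pass. After median-of-ratios scaling the counts that rose were 3 of 15 (20%), 3 of 25 (12%), 1 of 19 (5.26%), 0 of 5 and 1 of 7, where 11.2% of all tested genes rose, with 1 lower in each of the first 3 groups (OXA1L, RPUSD4 and PARS2). None of the mRNAs or ribosomal RNAs encoded in mitochondrial DNA was found among the genes listed under the symbols searched, so they were not analysed.

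The cytosolic ribosome, which translates all other proteins, had more genes lower than higher in the deposited values and under median-of-ratios scaling, but not under quantile normalization. Of 46 tested large-subunit genes 9 fell (19.6%) and 0 rose. Of 32 small-subunit genes 3 fell (9.38%, namely RPS4X, RPS6 and RPS9) and 1 rose (RPS26). Of all tested genes 6.93% fell and 18.7% rose, so the small-subunit share that fell was near the background. The median log2 fold changes were −0.05 for the large and −0.04 for the small subunit. Under median-of-ratios scaling 19 (41.3%) and 10 (31.2%) fell and 0 rose, where 12.2% of all tested genes fell and 11.2% rose. The split turned under quantile normalization, with 7 lower and 10 higher in the large and 2 lower and 3 higher in the small subunit. Under quantile normalization 19 mitochondrial members rose and 2 fell, where 12.1% and 11.3% of all tested genes did. The difference between the 2 ribosomes was not tested.

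**Figure D5:**
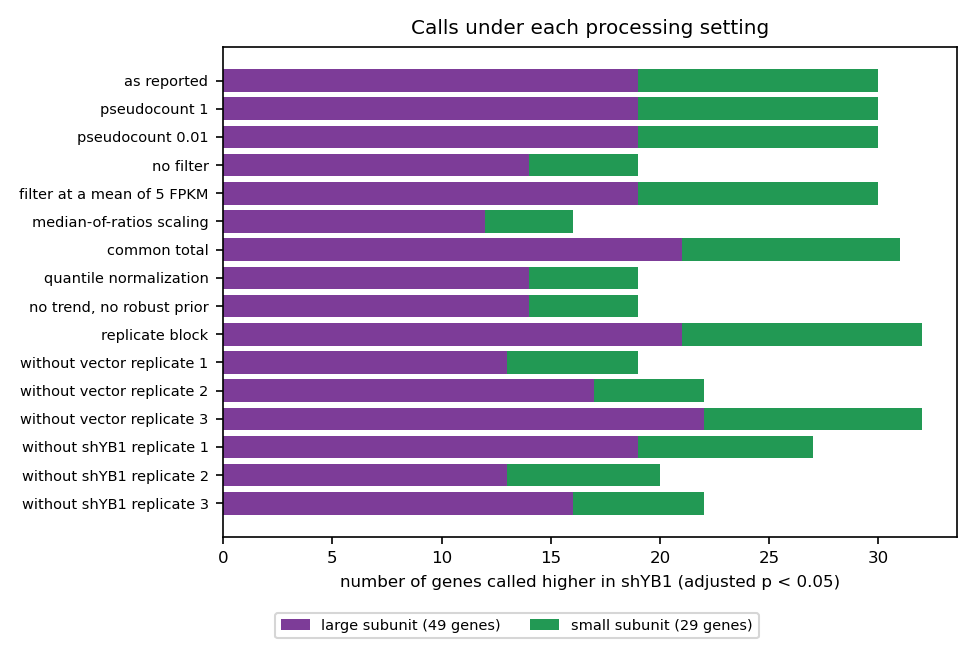
Number of large-subunit (purple) and small-subunit (green) genes called higher in shYB1 (horizontal axis) under each processing setting. The total runs from 16 under median-of-ratios scaling to 32 with the replicate block or without vector replicate 3, and it is 30 as reported. The share of all tested genes called under each setting is not drawn.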

How the data were processed

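mRNA sequencing of 6 libraries of 786-O cells was used (3 vector, 3 shYB1). The authors deposited FPKM per gene for each library, with GO terms and KEGG pathways, and 0 per-library columns were left out. The submitters' processing notes name Trimmomatic, HISAT2, Cufflinks, HTSeq, DESeq and GRCh38, without versions or roles; strand use and filters are not given in the sources used here. FPKM hold no fragment counts, so no counting interval was computed.

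From the deposited FPKM, log2(FPKM + 0.1) was compared between groups with limma 3.58.1 in R 4.3.3 (eBayes with trend and robust prior, two-sided), for genes averaging 1 FPKM or more, with p-values adjusted by Benjamini-Hochberg across the whole tested table. Fold changes are on that log2 scale, which understates changes of low genes. In a test on simulated data 163 of 200 genes changed by 0.5 (log2) among 10439 were recovered, with 4 false calls. That change exceeds the largest among the members (0.47 for MRPS10), so the recovery of smaller changes was not measured. An exact permutation test of 3 libraries against 3 cannot go below p = 0.1 and was not used for calls. Members, gene lists and region lists were chosen with earlier results of these data known, so their counts are descriptions beside the background. Named with values were YBX1, the 8 largest increases and all decreases among called members, the 3 highest and 3 lowest levels, the MRPS18 genes, MRPS36, called region members and the 5 proteins with other symbols, and in the other lists at most the 3 largest called changes; a few listed genes are not reported here. Alternatives were other pseudocounts, filters and scalings, a variance prior without trend, a replicate block, and each library left out. Exon numbers, exon overlaps, transcript length, GC content and shared sequence came from GENCODE release 29, and gene positions and promoters from RefSeq. Scripts ran in Python 3.11.15 with NumPy 2.4.6, pandas 2.3.3 and matplotlib 3.10.9.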

Additional observations from a re-analysis of the deposited data

How the results depend on the processing

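Of the 30 members that rose, 14 were called in all 15 alternatives. MRPL52 was called in 14 and, at 4.93 FPKM, not tested with the filter at 5 FPKM, and the others lost the call in at least 1. No member that was called changed direction in any of them. The number that rose was 16 under median-of-ratios scaling and 19 under quantile normalization, without the filter, and without trend and robust prior, and ran from 19 to 32 with single libraries left out, 19 being without vector replicate 1. For the large subunit it was 12 under median-of-ratios scaling and ran from 13 to 22 with libraries left out. For the small subunit it was 4 under median-of-ratios scaling and 5 under quantile normalization, without the filter and without trend, and ran from 5 to 10, with 6 without vector replicate 1, 5 without vector replicate 2, 7 without shYB1 replicate 2 and 6 without shYB1 replicate 3. The number that fell was 2 with a filter at 5 FPKM, under median-of-ratios scaling, the common total and quantile normalization, and 0 without trend, all in the large subunit. It ran from 0 to 1 with libraries left out, and was 0 without vector replicates 1 or 3 or any shYB1 replicate. Among the alternatives, the share of all tested genes called is given above for the scalings only. The member counts under the other alternatives, the replicate block included, therefore have no background beside them. The median log2 fold change was 0.097 (median-of-ratios) and 0.098 (quantile) for the large and 0.064 and 0.053 for the small subunit, with ranges of 0.117 to 0.181 and 0.099 to 0.120 on leaving out libraries. The causes were not tested. Leaving out a library also lowers the number of samples, and omitting the filter also raises the number of genes tested.

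The labels give replicate numbers 1 to 3 in both groups, but same-numbered libraries did not deviate together (correlations −0.17, −0.059 and −0.0082), so the numbers were not taken as a pairing. With the replicate number as a block, 32 members rose (21 large, 11 small) and 1 fell. Depth in fragments is unknown, and standard errors of the log2 fold changes ran from 0.035 to 0.148 over the members.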
